A study of Homo sapiens with 5 samples.

Results

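The HOX genes encode homeodomain transcription factors that stand side by side in 4 clusters, HOXA, HOXB, HOXC and HOXD, and their RNA was followed here in the colorectal cancer line COLO 320DM after siRNA against USP17. The members were chosen by name, as every protein-coding gene whose symbol is HOX, a cluster letter and a paralog number, which gave 39 of the 60651 genes listed: 11 in HOXA, 10 in HOXB, 9 in HOXC and 9 in HOXD. No measured value chose a single member, but the family was taken up because HOXA9 was already known to be among the genes that differed most between the same libraries, so what follows on the USP17 contrast describes the members and carries no p-value for any of them.

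The study asked what knockdown of USP17, a deubiquitinase, does to the RNA of colorectal cancer cells, and sequenced 5 poly(A)-selected bulk libraries of COLO 320DM, a single line derived from a human colon adenocarcinoma. Each library came from cells given a different siRNA. The libraries siIDT, sino4 and siSMPLT were taken as the USP17 siRNA group (n = 3), since siNT and siL2 are named as the non-silencing controls (n = 2) and the other names are the only ones left for the USP17 duplexes. The name of each library gives its siRNA only, with no dose, time or replicate culture, so a duplex and its library cannot be told apart, and the spread that any p-value rests on is that of these libraries alone.

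Reads assigned to genes numbered 31704821 to 32259474 with USP17 siRNA and 34320214 to 36276143 with control siRNA, so the control libraries were the deeper ones. The targeted gene gave no check of the labels: the 30 listed USP17L genes, near-identical copies of one another, had 0 reads and a TPM of 0 in all libraries. Of 13 markers of colon epithelium, 7 reached 1 TPM in every library, among them EPCAM, KRT8, KRT18, KRT20, CDH17 and CDX2, while PHGR1 was at 0. The summed level of the list was 1664 to 1723 TPM with USP17 siRNA and 1977 to 2054 TPM with control siRNA. These sums did not overlap, and their part in the HOX values was not tested. The list did not move as one. In the fit given below, 7 of the 13 had enough reads to test. Of these, 1 was called higher and 2 lower, next to 4.64% and 5.82% of all genes tested. Markers of endothelium summed to at most 0.27 TPM, and DCN of fibroblasts, CD3E of T cells, and INSM1 of neuroendocrine cells were at 0 in every library. Of the other fibroblast markers, COL1A1, COL3A1 and PDGFRB reached 1 TPM in all libraries, and the list summed to 16.3 to 20.2 TPM with USP17 siRNA and 20.5 to 22.7 TPM with control siRNA. Leukocyte markers, of which 3 of 7 reached 1 TPM, PTPRC and LYZ among them, summed to 24.8 to 27.9 TPM with USP17 siRNA and 22.9 to 28.6 TPM with control siRNA. Neuroendocrine markers, of which ENO2 alone did so among 9, summed to 4.93 to 6.13 TPM with USP17 siRNA and 4.15 to 8.31 TPM with control siRNA.

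HOX proteins bind DNA through the homeodomain, commonly together with PBX and MEIS proteins, and set the identity of body segments along the head-to-tail axis. Genes at the 3′ end of a cluster act early and towards the head, and those at the 5′ end act late and towards the tail, so that the order on the chromosome mirrors the order in the embryo. Paralogs are members of different clusters that share a number and descend from one ancestral gene. The adult colon keeps a HOX pattern rich in 5′ genes, and HOX13 paralogs pattern the hindgut.

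In the GENCODE 29 annotation of GRCh38, the HOXA cluster lay on the minus strand of chromosome 7 (107 kb), HOXB ran over chr17:48528526-48729178 on the minus strand (201 kb), HOXC over chr12:53938765-54056030 on the plus strand (117 kb) and HOXD over chr2:176092891-176190907 on the plus strand (98.0 kb). Clusters so compact hold overlapping transcripts. Of the 39 members, 18 shared exonic bases with another gene of the same strand and 19 with a gene of the opposite strand, and the genes for which this bears on a value are named with it.

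The COLO 320DM cells expressed most of the family, and the 5′ end of the HOXC and HOXD clusters held the highest levels. Levels of different genes are compared here in TPM, a length-corrected share of all transcripts. In total 24 of the 39 members reached 1 TPM in every library. HOXD13 had the highest level, with 65.5, 62.96 and 65.2 TPM with USP17 siRNA, against 67.3 and 55.8 TPM with control siRNA. HOXC12 followed, with 52.3, 51.4 and 55.4 TPM with USP17 siRNA, against 41.4 and 39.2 TPM with control siRNA. HOXC11 came next in mean level, with 55.3, 52.8 and 48.5 TPM with USP17 siRNA, against 31.1 and 32.9 TPM with control siRNA, so its USP17 libraries reached the range of HOXC12 while its control libraries lay below all libraries of HOXC12. The 5 members with the highest mean level, HOXD13, HOXC12, HOXC11, HOXC9 and HOXA13, made up 49.5% of all HOX TPM.

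**Figure D1:**
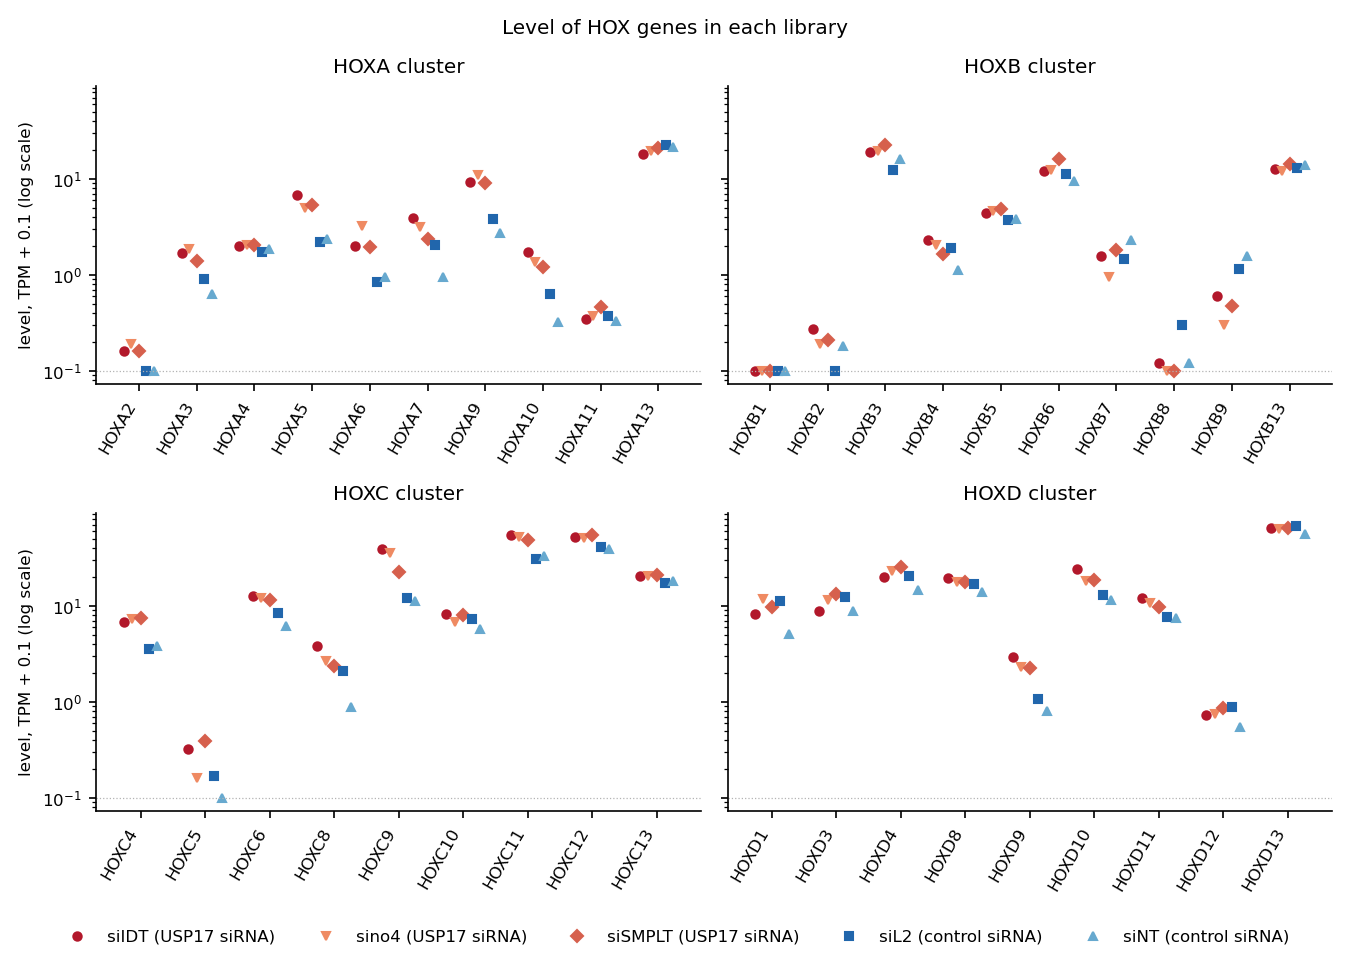
Level of HOX genes in each of the 5 libraries, by cluster, in TPM plus 0.1 on a log axis. Red symbols are the USP17 siRNA libraries and blue symbols the control siRNA libraries, and the dotted line marks a TPM of 0. The 5′ members HOXD13, HOXC12 and HOXC11 stand highest, while HOXB1 lies at 0 in all libraries.

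Summed over the family, HOX RNA was 458, 446 and 445 TPM with siIDT, sino4 and siSMPLT, against 355 and 316 TPM with siL2 and siNT. The HOXC cluster held the larger part of this gap, at 199, 188 and 177 TPM with USP17 siRNA against 123 and 118 TPM with control siRNA. The HOXD cluster summed to 161, 158 and 162 TPM with USP17 siRNA, against 150 and 118 TPM with control siRNA. All 3 USP17 libraries lay above both control libraries in each of these sums. The HOXB cluster gave 52.0, 51.5 and 61.1 TPM with USP17 siRNA, against 44.7 and 47.8 TPM with control siRNA. For HOXA the sums were 46.8, 48.2 and 45.7 TPM with USP17 siRNA, against 37.1 and 32.7 TPM with control siRNA. In CPM, the reads of a gene scaled to the reads assigned to all genes of its library and not corrected for length, HOXA13 alone made up 71.5% to 88.6% of the HOXA sum, and the sums overlapped, at 87.8, 95.3 and 93.6 CPM with USP17 siRNA against 92.2 and 83.1 CPM with control siRNA. Without HOXA13 the HOXA sum was 25.05, 25.6 and 21.9 CPM with USP17 siRNA, against 13.6 and 9.51 CPM with control siRNA.

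Gene by gene, more members were higher than lower with USP17 siRNA, most of them in the HOXA, HOXC and HOXD clusters, and 1 HOXB gene was lower. An edgeR quasi-likelihood fit of the read counts over 16341 genes, with the adjusted p set at 0.05, called 4.64% of all genes tested higher and 5.82% lower with USP17 siRNA. Of the 39 members 34 had enough reads to test, and 13 were called higher (HOXA3, HOXA5, HOXA6, HOXA9, HOXA10, HOXC4, HOXC6, HOXC9, HOXC11, HOXC12, HOXD9, HOXD10 and HOXD11) and 1 lower (HOXB9). The family was taken up with this contrast in view, so the shares are set side by side and nothing is read from their difference. The median log2 fold change of USP17 siRNA over control siRNA was 0.39 over the 34 tested members and 0.01 over all genes tested, and 29 of the 34 were above 0, against 50.7% of all genes. These calls depend on the libraries used: without siIDT 4 members were called higher (HOXA5, HOXA9, HOXC4 and HOXC11), and without sino4 only HOXA9 and HOXC11 were, while the calls over all genes were then 349 and 130 in place of 1710. In bulk RNA, fewer cells of a type and less RNA per cell cannot be told apart.

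**Figure D2:**
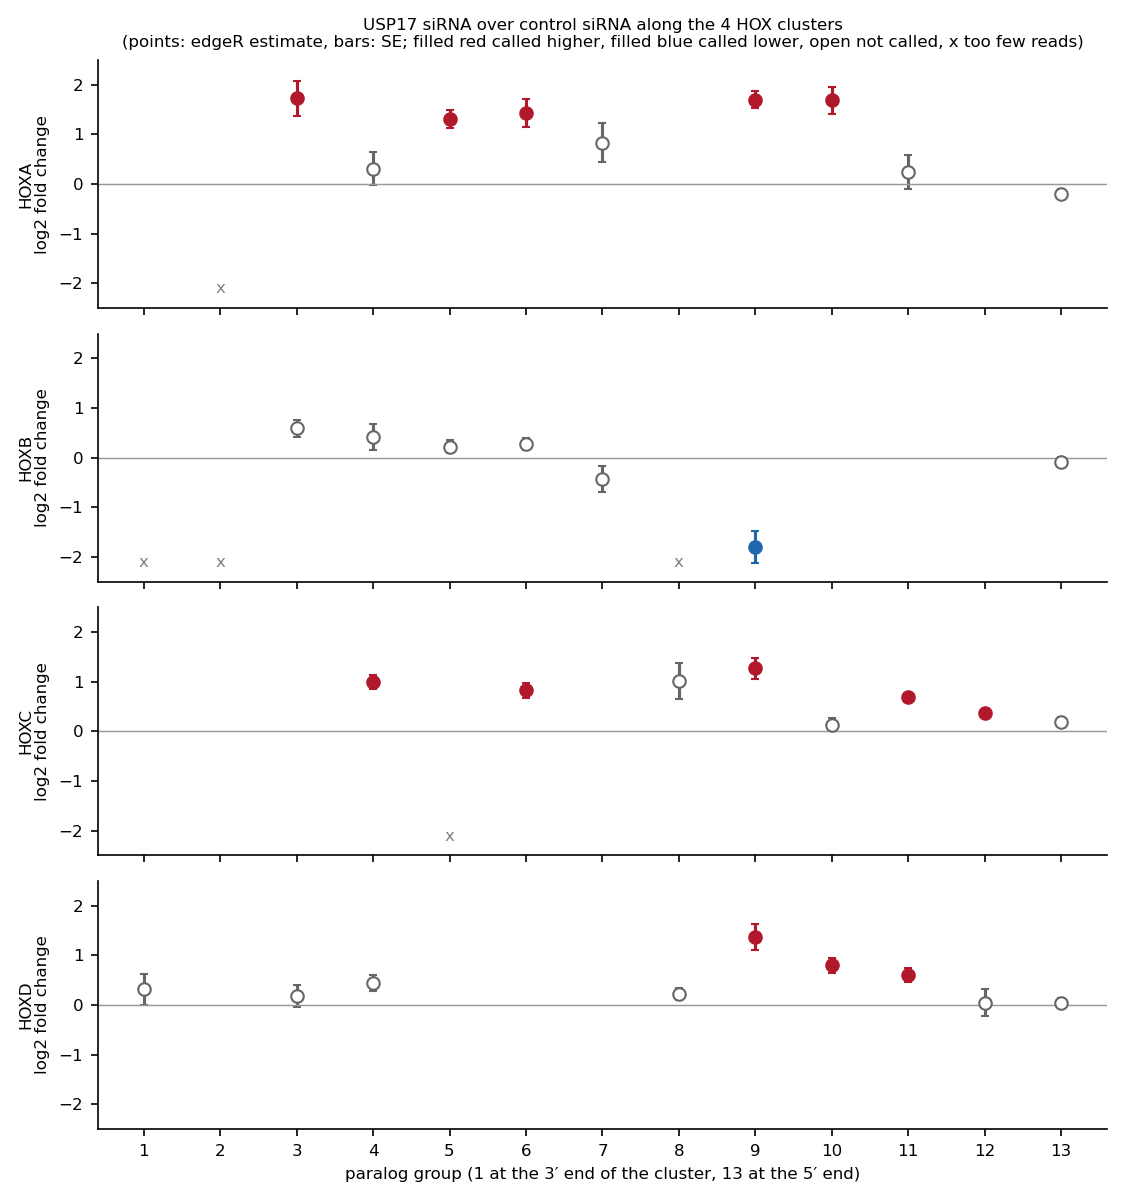
Log2 fold change of USP17 siRNA over control siRNA (edgeR estimate, bars are its SE) for HOX genes by paralog group, 1 cluster per panel. Filled red points were called higher, the filled blue point lower, open points were not called, and an x marks a gene with too few reads to test. Genes called higher lie between HOXA3 and HOXA10, between HOXC4 and HOXC12 and between HOXD9 and HOXD11, while the 4 members of paralog group 13 lie near 0.

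Calls were spread along the clusters. In the 3′ part (paralog groups 1 to 3) 1 of 5 tested members was called higher. In the middle part (groups 4 to 8) 4 of 13 were, and in the 5′ part (groups 9 to 13) 8 of 16 were called higher and 1 lower. By cluster, 5 of 10 tested HOXA members, 0 of 7 HOXB members, 5 of 8 HOXC members and 3 of 9 HOXD members were called higher. The median log2 fold change was 1.07 in HOXA, 0.22 in HOXB, 0.76 in HOXC and 0.31 in HOXD. Paralog groups 4, 9 and 13 were those with a member in every cluster. Of these, group 9 alone had a call in each cluster, HOXA9, HOXC9 and HOXD9 being higher and HOXB9 lower. That group was singled out after the values were seen, and it holds HOXA9, for which the family was taken up. In group 13, which sits at the 5′ end, none of the 4 members was called.

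Upstream sequence is shown for 4 members to set genes that were called next to abundant 5′ neighbours of the same clusters that were not: HOXA9 and HOXD10, called higher, and HOXA13 and HOXD13, not called. Each run is the 250 bases before a RefSeq transcription start, 5′ to 3′ on the gene's strand, from RefSeq's GRCh38.p14 annotation, at chr7:27165538-27165787 (minus) for HOXA9, chr2:176116528-176116777 (plus) for HOXD10, chr7:27200092-27200341 (minus) for HOXA13 and chr2:176092471-176092720 (plus) for HOXD13. Capitals mark matches on either strand to TATAAA, the core of a TATA box, and to CCAAT, the CCAAT box.
HOXA9: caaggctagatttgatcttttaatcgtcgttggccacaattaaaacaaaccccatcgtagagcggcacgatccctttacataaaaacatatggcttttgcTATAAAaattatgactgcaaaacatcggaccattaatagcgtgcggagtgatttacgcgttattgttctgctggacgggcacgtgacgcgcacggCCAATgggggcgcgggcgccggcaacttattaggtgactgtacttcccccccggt
HOXD10: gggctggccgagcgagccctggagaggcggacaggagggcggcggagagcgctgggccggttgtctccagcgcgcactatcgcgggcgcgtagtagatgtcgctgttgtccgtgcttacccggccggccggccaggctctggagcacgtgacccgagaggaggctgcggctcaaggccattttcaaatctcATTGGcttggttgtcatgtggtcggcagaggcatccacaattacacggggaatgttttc
HOXA13: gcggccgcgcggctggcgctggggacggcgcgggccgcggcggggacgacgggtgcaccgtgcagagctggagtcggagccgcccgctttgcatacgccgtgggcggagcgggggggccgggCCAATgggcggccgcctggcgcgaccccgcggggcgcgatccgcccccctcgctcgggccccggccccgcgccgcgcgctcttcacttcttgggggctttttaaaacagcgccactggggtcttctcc
HOXD13: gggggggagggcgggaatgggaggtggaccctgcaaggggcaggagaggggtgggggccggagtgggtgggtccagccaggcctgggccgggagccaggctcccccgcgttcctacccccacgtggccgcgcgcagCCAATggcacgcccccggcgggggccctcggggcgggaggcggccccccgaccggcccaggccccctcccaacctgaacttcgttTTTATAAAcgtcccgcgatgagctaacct
HOXA9 and HOXD13 hold both motifs, in HOXD13 with TATAAA on both strands in overlap, while HOXD10 and HOXA13 hold CCAAT alone. The runs of HOXA9, HOXD10, HOXA13 and HOXD13 contain 20, 23, 40 and 21 CG dinucleotides, against a median of 19 over the 27 promoters listed for 20 HOX genes and of 11 over all 35116 promoters of the table. CCAAT occurred in 18 of the 27 HOX promoters and in 32.0% of all, and TATAAA in 5 of 27 and in 10.7% of all. HOXC4 and HOXC5 are listed with the same window, which holds CCAAT and is counted for each. HOXA3 is listed with several of the 27. The joint HOX and PBX site TGATTNAT occurred in 2 of 27, those of HOXA2 and HOXD11, and in 2.48% of all. These matches describe the letters in these windows. Among the 4 members shown, each combination of motifs was held by a called member and by one not called. Whether the motifs differ between called and other members over the 27 promoters was not tested.

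In the HOXA cluster, HOXA3, HOXA5, HOXA6, HOXA9 and HOXA10 were called higher with USP17 siRNA, while HOXA13 at the 5′ end was not called. Values of single libraries are given below in the order siIDT, sino4 and siSMPLT for USP17 siRNA, and siL2 and siNT for control siRNA, in CPM, which sets the same gene side by side between libraries. HOXA9 (ENSG00000078399.19, chr7:27162435-27175180), a driver of acute leukaemias together with its partner MEIS1, had 7.07, 8.75 and 7.38 CPM with USP17 siRNA, against 2.59 and 2.07 CPM with control siRNA. All 3 USP17 libraries stood well above both controls, with sino4 highest. The means were 7.73 ± 0.897 CPM (SD, n = 3) with USP17 siRNA and 2.33 ± 0.372 CPM (SD, n = 2) with control siRNA, and the log2 fold change was 1.70 ± 0.17 (SE), a 3.25-fold difference. HOXA9 was called in all 11 alternative analyses. These reuse the libraries in which it was already known to differ, so this adds no support. Its exons share 15.9% of their bases with same-strand genes and its reads assigned by RSEM were 1.298 times those counted uniquely, and with RSEM counts it was also called.

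HOXA10, the neighbour of HOXA9 and a gene needed for uterine development, had 1.46, 1.43 and 1.199 CPM with USP17 siRNA, against 0.466 and 0.358 CPM with control siRNA. Its groups did not overlap, at a log2 fold change of 1.69 ± 0.27, but it is a low gene, with 47, 46 and 38 reads with USP17 siRNA, against 16 and 13 reads with control siRNA. HOXA10 had nearly as many reads on the opposite strand, 0.99 per own-strand read, where HOXA10-AS shares 16.4% of its exonic bases. HOXA5, which in mouse intestine restrains stem cell programmes, had 5.52, 6.33 and 4.64 CPM with USP17 siRNA, against 2.302 and 2.04 CPM with control siRNA. It averaged 5.496 ± 0.849 CPM (SD, n = 3) with USP17 siRNA and 2.17 ± 0.185 CPM (SD, n = 2) with control siRNA, with no overlap and a log2 fold change of 1.31 ± 0.19, and it shares no exonic base with another gene. HOXA6, its 5′ neighbour, had 1.33, 1.96 and 1.39 CPM with USP17 siRNA, against 0.554 and 0.579 CPM with control siRNA. All USP17 libraries of HOXA6 were well above the controls, which were close together, and the log2 fold change was 1.42 ± 0.28. Reads of HOXA6 were also few, at 43, 63 and 44 with USP17 siRNA, against 19 and 21 with control siRNA. HOXA3, which patterns the pharyngeal arches and the thymus in mouse, had 2.11, 1.21 and 1.32 CPM with USP17 siRNA, against 0.554 and 0.358 CPM with control siRNA. The siIDT library was the highest of HOXA3 and none of the USP17 libraries reached down to the controls, at a log2 fold change of 1.73 ± 0.35. HOXA3 is also a low gene, with 68, 39 and 42 reads with USP17 siRNA, against 19 and 13 reads with control siRNA. Outside the fit of all 5 libraries these calls were less steady: HOXA3, HOXA6 and HOXA10 were not called without siIDT, HOXA3, HOXA5, HOXA6 and HOXA10 not without sino4, and HOXA3 not without siNT.

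HOXA7 was not called, and its controls were far apart. It had 3.63, 2.67 and 1.96 CPM with USP17 siRNA, against 2.21 and 0.827 CPM with control siRNA, so siL2 lay within the USP17 libraries and siNT far below them, at a log2 fold change of 0.83 ± 0.39. HOXA-AS3 on the opposite strand covers 62.5% of its exonic bases, although opposite-strand reads were 0.03 per own-strand read. HOXA13, needed for digits, hindgut and urogenital tract, had 62.8, 69.6 and 71.8 CPM with USP17 siRNA, against 78.6 and 73.6 CPM with control siRNA. All its USP17 libraries were below both controls by a small margin, at -0.19 ± 0.09 on the log2 scale, and it was not called. HOXA4 and HOXA11 were near the limit of detection, at 14 to 24 reads and 12 to 19 reads a library, their groups overlapped, and neither was called. HOXA4 shares 31.0% of its exonic bases with a same-strand gene, and HOXA11 had 2.34 opposite-strand reads per own-strand read, where HOXA11-AS lies. HOXA2 was not tested, at 2, 3 and 2 reads with USP17 siRNA, against 0 and 0 reads with control siRNA.

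The HOXC cluster had called members from HOXC4 to HOXC12. HOXC9, which specifies thoracic motor neurons in mouse, had 25.9, 23.6 and 15.5 CPM with USP17 siRNA, against 9.82 and 7.77 CPM with control siRNA. The siSMPLT library was the lowest of the USP17 libraries and still above both controls, and the log2 fold change was 1.27 ± 0.22. HOXC4, which in mouse B cells induces the deaminase AID, had 6.97, 6.92 and 6.69 CPM with USP17 siRNA, against 3.21 and 3.56 CPM with control siRNA, with the libraries of each group close together. Its mean was 6.86 ± 0.154 CPM (SD, n = 3) with USP17 siRNA and 3.38 ± 0.248 CPM (SD, n = 2) with control siRNA, and the log2 fold change was 0.99 ± 0.14. HOXC6 had 12.99, 12.4 and 11.7 CPM with USP17 siRNA, against 8.01 and 5.65 CPM with control siRNA. Its controls were further apart than its USP17 libraries, and the groups did not overlap, at a log2 fold change of 0.83 ± 0.15. HOXC4 shares 17.8% and HOXC6 15.7% of exonic bases with HOXC neighbours of the same strand, so their reads are in part uncertain between them.

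HOXC11 and HOXC12, neighbours near the 5′ end, were among the most abundant members and were called higher at smaller folds. HOXC11 (ENSG00000123388.4, chr12:53973126-53977643) had 95.5, 89.6 and 81.7 CPM with USP17 siRNA, against 53.9 and 53.8 CPM with control siRNA. The controls were almost equal and every USP17 library stood above them, with a mean of 88.9 ± 6.92 CPM (SD, n = 3) with USP17 siRNA and 53.9 ± 0.0268 CPM (SD, n = 2) with control siRNA. The log2 fold change was 0.69 ± 0.09, a 1.61-fold difference. HOXC11, like HOXA9, was called in all 11 alternatives, which use the same libraries or fewer of them. HOXC12 had 119, 119 and 126 CPM with USP17 siRNA, against 95.3 and 89.04 CPM with control siRNA. The groups did not overlap, at a log2 fold change of 0.37 ± 0.07, the smallest of the called members. HOXC13, the 5′ end gene, which is required for hair and nails, had 33.6, 34.1 and 34.4 CPM with USP17 siRNA, against 28.7 and 29.4 CPM with control siRNA. Its groups were tight and apart, but the log2 fold change was 0.20 ± 0.08 and it was not called. Without siIDT the calls of HOXC6, HOXC9 and HOXC12 were lost, without sino4 those of HOXC4, HOXC6, HOXC9 and HOXC12, and without siSMPLT that of HOXC12.

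HOXC8 and HOXC10 were the other HOXC members with levels to describe. HOXC8 had 6.54, 4.56 and 3.91 CPM with USP17 siRNA, against 3.55 and 1.35 CPM with control siRNA. The groups did not overlap, but siL2 came close to siSMPLT and far above siNT, and the gene was not called at a log2 fold change of 1.01 ± 0.37. HOXC10, which specifies lumbar motor neurons in mouse, had 6.76, 5.899 and 6.09 CPM with USP17 siRNA, against 5.94 and 5.21 CPM with control siRNA, with overlapping groups and a log2 fold change of 0.13 ± 0.14. HOXC5 was not tested, at 3, 2 and 5 reads with USP17 siRNA, against 1 and 0 reads with control siRNA, and 59.9% of its exonic bases lie in other same-strand transcripts.

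In the HOXD cluster the called members were the 3 neighbours HOXD9, HOXD10 and HOXD11. HOXD9 had 3.81, 2.86 and 3.06 CPM with USP17 siRNA, against 1.57 and 0.882 CPM with control siRNA. All its USP17 libraries were above both controls, of which siL2 was the higher, and the log2 fold change was 1.37 ± 0.26. HOXD10, which acts with HOXC10 in lumbar motor neurons in mouse, had 19.7, 15.9 and 14.6 CPM with USP17 siRNA, against 10.2 and 8.71 CPM with control siRNA. Its mean was 16.7 ± 2.62 CPM (SD, n = 3) with USP17 siRNA and 9.44 ± 1.03 CPM (SD, n = 2) with control siRNA, and the log2 fold change was 0.80 ± 0.15, with siIDT the highest library. HOXD11 had 5.02, 4.75 and 4.92 CPM with USP17 siRNA, against 3.18 and 3.11 CPM with control siRNA. Both groups were tight and apart, at a log2 fold change of 0.61 ± 0.14. HOXD11 shares 21.4% of its exonic bases with HOXD10, RSEM assigned it 1.96 times the uniquely counted reads, and with RSEM counts it was not called, at a log2 fold change of 0.52. The calls of all 3 were lost without siIDT and without sino4, and that of HOXD11 without siSMPLT.

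The 2 ends of the HOXD cluster were not called. HOXD13, which like HOXA13 shapes digits, had 108, 106 and 109 CPM with USP17 siRNA, against 113 and 91.8 CPM with control siRNA. The siL2 library was the highest and siNT the lowest, so the USP17 libraries lay between the controls, at a log2 fold change of 0.04 ± 0.09. HOXD12 had 1.15, 1.15 and 1.26 CPM with USP17 siRNA, against 1.43 and 0.827 CPM with control siRNA, again between the controls, at 0.05 ± 0.27. HOXD8 had 19.8, 18.2 and 18.6 CPM with USP17 siRNA, against 17.9 and 13.9 CPM with control siRNA, and siL2 came within reach of the USP17 libraries, at 0.21 ± 0.12. HOXD4 had 19, 22.3 and 24.5 CPM with USP17 siRNA, against 18.3 and 13.3 CPM with control siRNA. Its groups did not overlap, but siL2 was close to siIDT, and the log2 fold change was 0.44 ± 0.16. HOXD3 had 9.95, 13.01 and 14.1 CPM with USP17 siRNA, against 13.3 and 8.16 CPM with control siRNA, with siL2 inside the USP17 range, at 0.18 ± 0.21. HOXD1, which acts in pain-sensing neurons of mouse, had 10.8, 15.3 and 12.4 CPM with USP17 siRNA, against 14.3 and 6.06 CPM with control siRNA. The controls of HOXD1 were further apart than the USP17 libraries, at a log2 fold change of 0.31 ± 0.30. A same-strand transcript covers 80.5% of the exonic bases of HOXD4 and 62.2% of those of HOXD3, and RSEM gave HOXD4 0.76 times the uniquely counted reads, so their levels are uncertain. In the fits without siNT the log2 fold changes of HOXD1, HOXD3, HOXD12 and HOXD13 were below 0, at -0.17, -0.12, -0.28 and -0.09.

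The HOXB cluster had no member called higher, and HOXB9, active in the patterning of ribs in mouse, was the 1 member called lower. HOXB9 (ENSG00000170689.10, chr17:48621159-48626356) had 29, 12 and 22 reads with USP17 siRNA, against 64 and 94 reads with control siRNA. These are 0.899, 0.373 and 0.694 CPM with USP17 siRNA, against 1.86 and 2.59 CPM with control siRNA, so every USP17 library was below the lower control by more than the gap between the controls, and sino4 was lowest. The log2 fold change was -1.80 ± 0.33, a 0.29-fold level, and without sino4 it was -1.52 and HOXB9 was no longer called. HOXB9 shares no exonic base with another gene.

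HOXB3, HOXB5 and HOXB6 had all USP17 libraries above both controls but were not called. HOXB3 had 7.04, 9.41 and 9.904 CPM with USP17 siRNA, against 6.09 and 5.29 CPM with control siRNA, at a log2 fold change of 0.60 ± 0.17. It was called higher with the DESeq2 Wald test and with counts taken without regard to strand, and it had 0.24 opposite-strand reads per own-strand read. HOXB6 had 9.703, 10.8 and 11.7 CPM with USP17 siRNA, against 8.97 and 8.41 CPM with control siRNA, at 0.27 ± 0.12. HOXB5, which acts in the enteric nervous system, had 5.46, 5.87 and 6.28 CPM with USP17 siRNA, against 4.87 and 4.96 CPM with control siRNA, at 0.22 ± 0.14. In both, the gap between the groups was smaller than the range of the USP17 libraries. HOXB4, used to expand blood stem cells, had 3.596, 3.105 and 2.302 CPM with USP17 siRNA, against 2.74 and 1.68 CPM with control siRNA, and HOXB13, a prostate lineage factor that is also kept in the hindgut, had 26.3, 25.3 and 29.5 CPM with USP17 siRNA, against 27.6 and 28.6 CPM with control siRNA. Both overlapped between groups, at 0.42 ± 0.26 and -0.09 ± 0.10 on the log2 scale. HOXB7 lay at 0.776 to 1.29 CPM with USP17 siRNA and at 1.25 to 1.41 CPM with control siRNA, which overlapped. HOXB1 had 0 reads in all libraries, which allows up to 3 reads, or 0.0827 to 0.0946 CPM, counting error only. HOXB2 and HOXB8 were not tested, with 7, 3 and 3 reads with USP17 siRNA, against 0 and 1 reads with control siRNA for HOXB2 and 1, 0 and 0 reads with USP17 siRNA, against 3 and 1 reads with control siRNA for HOXB8.

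**Figure D3:**
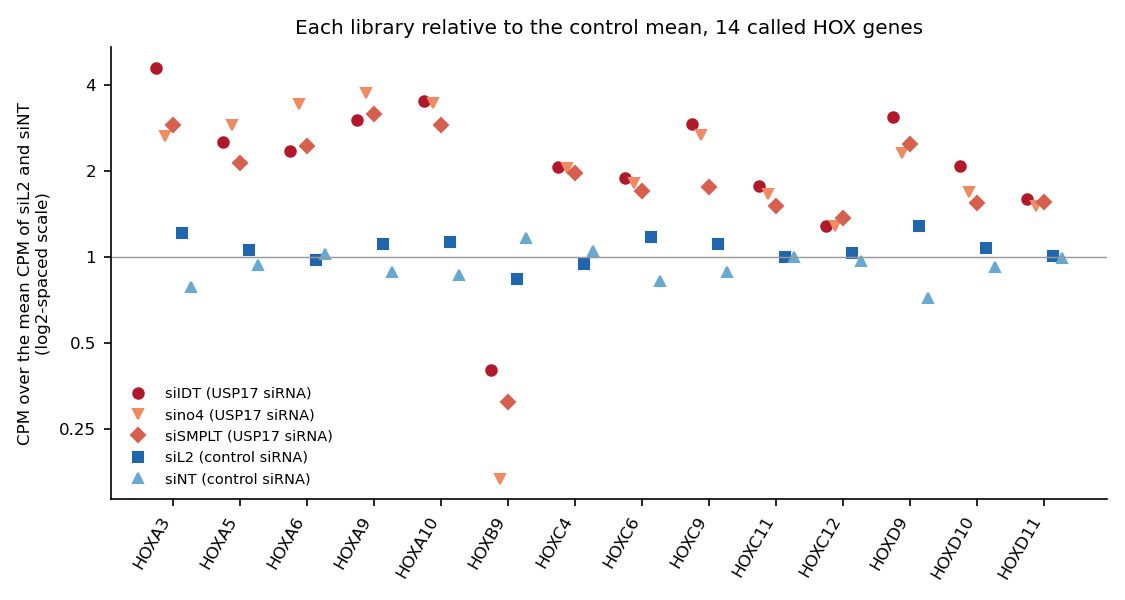
CPM of each library over the mean CPM of siL2 and siNT for the 14 called HOX genes, on a log2-spaced axis; red symbols are USP17 siRNA libraries and blue symbols control siRNA libraries. The 3 USP17 libraries lie above both controls for 13 genes and below them for HOXB9, and the distance between siL2 and siNT differs from gene to gene. The genes were called on these same libraries, so the separation follows in part from that choice.

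By single siRNA, the median log2 difference from the control mean over the 13 members called higher was 1.12 with siIDT, 1.21 with sino4 and 0.94 with siSMPLT. Over all 34 tested members it was 0.31 with siIDT, 0.53 with sino4 and 0.44 with siSMPLT. The 13 were called on these same libraries, so positive medians over them follow in part from that choice. The siIDT library was the highest of the USP17 libraries for 9 of the 13, sino4 for 3 and siSMPLT for 1. Over the 34 tested members, 20 had all USP17 libraries above both controls and 2 (HOXA13 and HOXB9) all below, next to 26.8% and 19.1% of all genes tested.

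The controls were not alike for this family. On the log2 CPM scale (prior count 2) the siL2 library was above siNT for 25 of the 34 tested members and for 9 of the 13 called higher, and the median log2 difference of siL2 over siNT was 0.22 over the 34 members. A set of 8 members, among them HOXA7, HOXB4, HOXC8, HOXD1, HOXD3, HOXD9 and HOXD12, was on that scale at least 1.5-fold higher with siL2 than with siNT, and 0 were at least 1.5-fold lower, next to 6.49% and 6.44% of all genes tested. For 7 of these 8, all but HOXD9, the gap between the controls in CPM was larger than the distance from siL2 to the mean of the USP17 libraries. Without siL2 the median log2 fold change of the members was 0.64 and 18 members were called higher, with HOXA7, HOXC8, HOXD1, HOXD4 and HOXD8 added, and without siNT the median was 0.25 and 12 were called higher. Over all genes, 1005 were called higher without siL2 and 1384 without siNT, against 759 with all libraries. No library carries a second culture of the same siRNA, so differences between siL2 and siNT were not tested.

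Noncoding RNAs of the HOX loci were followed with their neighbours. Of 20 listed and matched, 12 were tested. In the same fit 3 were called higher and 0 lower, next to 4.64% and 5.82% of all genes tested. At such shares a list of 12 would hold few calls, so nothing is read from the 0. The median log2 fold change of the list was 0.63, against 0.01 over all genes. HOTAIR, transcribed antisense between HOXC11 and HOXC12 and reported in human fibroblasts to act on HOXD genes, had 52.7, 52.6 and 54.7 CPM with USP17 siRNA, against 29.8 and 29.6 CPM with control siRNA. Both groups were tight and far apart. The log2 fold change was 0.81 ± 0.08 (edgeR adjusted p = 0.003004), next to 0.69 ± 0.09 for HOXC11 and 0.37 ± 0.07 for HOXC12. Over the 5 fits that left out a library the log2 fold change of HOTAIR ran from 0.79 to 0.83. HOTAIR was also called without siIDT, without sino4 and without siSMPLT. These fits reuse the same libraries, so this adds no support. HOXA10-AS, antisense to HOXA10 and HOXA9, had 1.27, 1.12 and 0.883 CPM with USP17 siRNA, against 0.524 and 0.358 CPM with control siRNA, at 1.27 ± 0.31 (edgeR adjusted p = 0.0366). HOXC-AS1 had 1.05, 1.61 and 1.14 CPM with USP17 siRNA, against 0.641 and 0.441 CPM with control siRNA, at 1.20 ± 0.31 (edgeR adjusted p = 0.0467). Both were called in 1 of the 5 fits without a library, the one without siL2, and HOXA10-AS shares sequence with HOXA10 on the other strand.

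HOTTIP, HOTAIRM1 and HAGLR were not called. HOTTIP, next to HOXA13, had 3.503, 3.32 and 3.97 CPM with USP17 siRNA, against 6.24 and 3.83 CPM with control siRNA, at -0.51 ± 0.21 (edgeR adjusted p = 0.152). HOTAIRM1 had 0.744, 0.714 and 0.725 CPM with USP17 siRNA, against 1.63 and 0.524 CPM with control siRNA, with siL2 highest, at -0.58 ± 0.42 (edgeR adjusted p = 0.408). HAGLR, which lies across HOXD1 and HOXD3, had 46.5, 46.8 and 51.2 CPM with USP17 siRNA, against 60.3 and 48.2 CPM with control siRNA, at -0.20 ± 0.10 (edgeR adjusted p = 0.236).

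**Figure D4:**
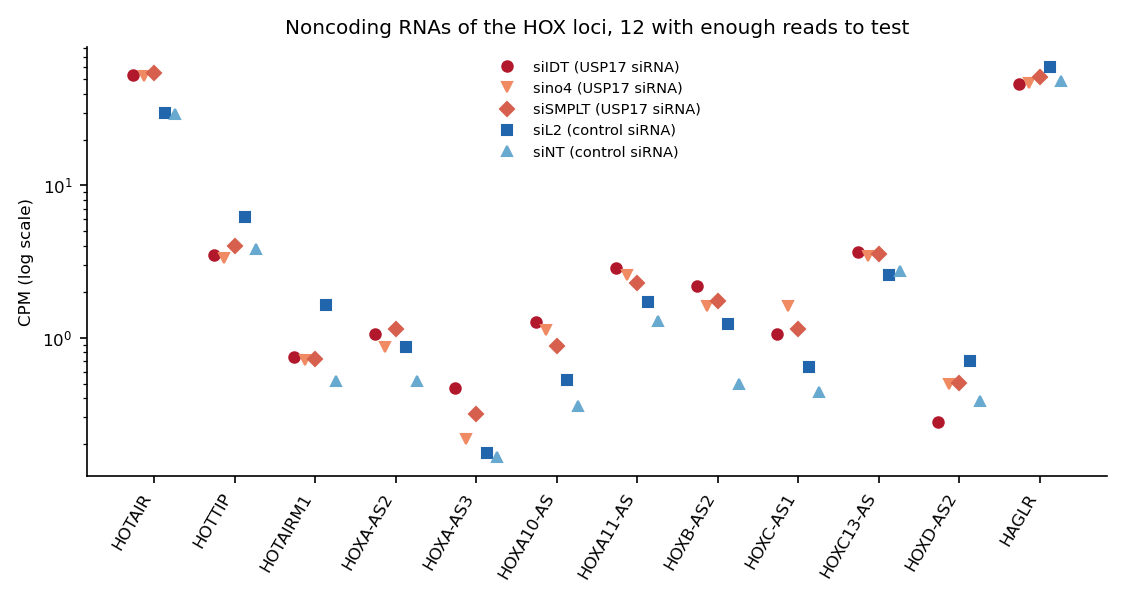
CPM of the 12 tested noncoding RNAs of the HOX loci in each library, on a log axis; red symbols are USP17 siRNA libraries and blue symbols control siRNA libraries. HOTAIR shows tight groups that stand apart, at 52.6 to 54.7 CPM with USP17 siRNA and 29.6 to 29.8 CPM with control siRNA, while HOTTIP, HOTAIRM1 and HAGLR have siL2 highest.

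Of 51 tested protein partners, related homeobox genes and regulators of the family 9 were called in either direction, next to 10.5% of all genes tested. Of 8 tested PBX, MEIS and PKNOX genes, whose proteins bind DNA with HOX proteins, 1 rose. This gene, PKNOX1, had 63.5, 57.96 and 43.9 CPM with USP17 siRNA, against 38.8 and 33.3 CPM with control siRNA, at 0.58 ± 0.15 (edgeR adjusted p = 0.0448). MEIS1, the partner of HOXA9, had 77.6, 82.5 and 95.5 CPM with USP17 siRNA, against 77.4 and 71.3 CPM with control siRNA, and was not called (log2 fold change 0.16 ± 0.10, edgeR adjusted p = 0.322). PKNOX1 was not called without siIDT, without sino4 or without siNT.

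CDX2, the intestinal homeobox factor that activates HOX genes in the mouse embryo, had 1660, 1635 and 1701 CPM with USP17 siRNA, against 2094 and 1954 CPM with control siRNA. It fell by 0.31 ± 0.06 on the log2 scale (edgeR adjusted p = 0.0162), and was not called without siIDT or without sino4. Of 12 tested genes of MLL proteins and partners, a group tied to the upkeep of HOX transcription, MLLT3 rose and 0 fell. The log2 fold change of MLLT3 was 0.39 ± 0.09 (edgeR adjusted p = 0.0285). KMT2A, which encodes MLL itself, was not called (0.23 ± 0.09, edgeR adjusted p = 0.144). Of 18 Polycomb genes, which keep HOX genes silent, EZH2 rose (0.38 ± 0.07, edgeR adjusted p = 0.01899) and PHC1 fell (-0.58 ± 0.13, edgeR adjusted p = 0.0296). Of 10 tested genes of retinoic acid signalling, an inducer of 3′ HOX genes, CYP26B1, which breaks retinoic acid down, rose (1.08 ± 0.17, edgeR adjusted p = 0.012). The receptor RARB (-0.36 ± 0.09, edgeR adjusted p = 0.0399) and the synthesis enzyme ALDH1A2 (-0.44 ± 0.10, edgeR adjusted p = 0.0296) fell. None of these 7 called genes was called without sino4 or without siIDT, and PHC1, RARB and ALDH1A2 were called in 1 of the 5 fits that left out a library.

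Genes beyond the ends of the clusters were also followed. Of 18 tested genes flanking the 4 clusters, 0 passed the edgeR threshold in either direction, next to 10.5% of all genes tested. At that share a list of 18 would hold few calls, so nothing is read from the 0. The median log2 fold change of the list was 0.02. The smallest adjusted p-values from edgeR were those of SNX10 (-0.47 ± 0.14, adjusted p = 0.0595) and HIBADH (-0.68 ± 0.20, adjusted p = 0.0608) near HOXA, and of LNPK (0.29 ± 0.09, adjusted p = 0.0812) near HOXD. SNX10 and HIBADH had lower values and LNPK higher ones with USP17 siRNA.

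The HOX clusters also encode microRNAs that pair with HOX mRNAs, and their seeds are shown because 9 of the 39 members hold the match. The mature sequences, from RefSeq's GRCh38.p14 annotation, are given 5′ to 3′ with the seed, bases 2 to 8, in capitals.
hsa-miR-196b-5p: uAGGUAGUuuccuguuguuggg
hsa-miR-196a-5p: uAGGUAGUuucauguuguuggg
hsa-miR-10a-5p: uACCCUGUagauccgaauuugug
The miR-196 RNAs share a seed, and miR-196b lies at chr7:27169528-27169549 on the minus strand, inside the HOXA9 span. The match ACTACCT was found in the longest annotated 3′ UTR of 9 members, among them HOXA5, HOXA7, HOXA9, HOXB1, HOXB6, HOXB7, HOXB13 and HOXC8, and in 8.41% of the 12469 tested coding genes. HOXA7 holds 4 matches and HOXA9 2, and those of HOXA9 are shown with the match in capitals.
HOXA9 site at UTR base 342: aacaaaaggaaagaaACTACCTt
HOXA9 site at UTR base 904: tatgtgcagaaggttACTACCTa
Of the 9 carriers, HOXA5 and HOXA9 were called higher, HOXB1 had 0 reads and was not tested, and the others were not called. The miR-10 match ACAGGGT was found in 3 members, HOXA3 and HOXB3 among them, and in 14.9% of the tested coding genes. Mature microRNAs are not measured by these libraries.

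The 7-base words that earlier work on these libraries had picked as common in the 3′ UTRs of genes lower with USP17 siRNA were rare in the family. ATCACTC was found in 1 of 39 members, HOXB9, which was also the 1 member called lower, and in 8.06% of the tested coding genes. TCACTCA was found in HOXC10 alone, which was not called, and in 12.4% of the tested coding genes. Another word, GATCATC, picked for genes lower with siL2, was found in 0 of 39 members and in 6.4% of the tested coding genes. The 2 sites are shown with the word in capitals.
HOXB9 site at UTR base 1727 of 1741: aaaaatatatATCACTCtagaaaat
HOXC10 site at UTR base 274 of 833: tgtcaagcccTCACTCAcccacgcact
The words were picked on these libraries, and siRNA sequences were not used here, so the match of HOXB9 is a description of its sequence.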

How the data were processed

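RNA of 5 COLO 320DM libraries was extracted with TRIzol and RNeasy columns, poly(A)-selected and prepared with the KAPA RNA HyperPrep kit, per the labels' protocols. The submitters' processing notes name bcl2fastq 2.20, STAR 2.7.1a, RSEM 1.3.2 and GRCh38. For each library the authors deposited STAR read counts per gene (without strand and for each strand) and RSEM expected counts with TPM, on an annotation whose release is not given in the sources used here. Of the deposited counts, those of the gene's own strand were used, since they outnumbered the opposite strand 18.7 to 19.9 times. Rows that name no gene (22.8% to 24.4% of reads, with 6.37% to 7.49% on no gene's own strand) were left out. Symbols matched 60437 of 60651 identifiers.

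Counts were fitted with edgeR 4.0.16 in R 4.3.3 (filterByExpr, minimum count 10 and total 15, TMM, quasi-likelihood F test, two-sided, Benjamini-Hochberg at 0.05 over 16341 genes), which was checked on simulated data. CPM scales reads to those assigned to genes, and per-library log2 differences used a prior count of 2. limma-voom 3.58.1, the DESeq2 1.42.0 Wald test, DESeq2 size factors, rounded RSEM expected counts, unstranded counts, no filter and each library left out were the alternatives. No column of another sample was used. Intervals and floors cover counting error only.

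HOX genes called or with a log2 CPM of at least 1 were described in full where named, and the others by ranges or reads, except HOXD12, given beside HOXD13. From each list the called genes, up to 3 with the smallest p, and HOTAIR, HOTTIP, HOTAIRM1, CDX2, MEIS1 and KMT2A were named; HAGLR was named after its values were seen. The members and lists were chosen with earlier results of these data known. Promoter motifs and microRNA matches were looked up after the values were seen. Gene positions, exons and 3′ UTRs are those of GENCODE 29 on GRCh38, whose identifier versions are older than those of the files. HOXA10-HOXA9 and KIAA1715, an older symbol of LNPK, were not matched as separate genes. Protein sequences were not analysed here. Some genes that enter the counts are not reported here by name.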

Additional observations from a re-analysis of the deposited data

Results flagged for a closer look

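Reads on the strand opposite to a HOX gene were not part of the comparison, and 5 members had at least 50 such reads in 1 library. For 3 of the 5 they were higher in all USP17 libraries than in both controls, next to 18.2% of the 4846 genes with as many such reads. Opposite to HOXC11 the mean was 6.561 CPM with USP17 siRNA and 3.477 CPM with control siRNA, with 6.01, 7.08 and 6.59 CPM in siIDT, sino4 and siSMPLT, against 3.70 and 3.25 CPM in siL2 and siNT. HOXC11 shares no exonic base with an opposite-strand gene in GENCODE 29, and there were 0.07 opposite-strand reads per own-strand read. Opposite to HOXB3 the mean was 2.358 CPM with USP17 siRNA and 0.945 CPM with control siRNA, at 21 to 86 reads a library. HOXB-AS1 and HOXB-AS3, which share exonic bases with HOXB3 on that strand, had only 1 to 6 and 4 to 10 reads a library. HOXB-AS2, not among the genes that share its exonic bases, had 18 to 71. Opposite to HOXC9 the mean was 1.767 CPM with USP17 siRNA and 0.5946 CPM with control siRNA, at 20 to 63 reads a library. HOXC-AS2, which shares exonic bases with HOXC9 on that strand, had only 0 to 2 reads a library. For HOXC12 and HOXD13 the groups overlapped, at 2.17, 2.58 and 2.27 CPM with USP17 siRNA against 1.75 and 2.23 CPM with control siRNA for HOXC12, and at 1.27, 1.09 and 1.51 CPM with USP17 siRNA against 1.86 and 1.13 CPM with control siRNA for HOXD13. These reads were not tested. With groups of 3 and 2 libraries no library was looked at as an outlier.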

How the results depend on the processing

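DESeq2 size factors, limma-voom and no filter on low counts changed no HOX call, HOXD11 was not called with RSEM expected counts, the DESeq2 Wald test added HOXB3 and HOXC8, and unstranded counts added HOXB3. No called member changed sign in any of the 11 alternatives. Leaving out 1 library gave 130 to 2633 called genes over all tested, 50 to 1384 higher and 80 to 1425 lower, 2 to 18 HOX members higher and 0 to 1 lower, 1 to 11 partner, neighbour and regulator genes higher (7 with all libraries) and 0 to 8 lower (5 with all libraries), and a median HOX log2 fold change of 0.25 to 0.64. Of the 14 called members, 12 lost their call when sino4 was left out, 9 for siIDT, 2 for siSMPLT, 1 for siNT and 0 for siL2; fewer libraries entered each of these fits, and no other cause was tested. Of members not called, HOXD12 changed sign without siSMPLT (-0.000312), and over the fits without 1 library its log2 fold change ran from -0.282 to 0.467, that of HOXD13 from -0.0857 to 0.177, of HOXD3 from -0.12 to 0.548 and of HOXD1 from -0.172 to 1.03, the lowest without siNT and the highest without siL2. The log2 ratio of the summed HOXA level was 0.429 in TPM and 0.0746 in CPM, where HOXA13 holds most of the sum. The members at 1 TPM or more in every library numbered 24, and 34 had at least 10 reads in every library. No paired analysis was possible because the labels carry no replicate numbers and each siRNA was used in 1 library. Depth limits HOXA2, HOXB1, HOXB2, HOXB8 and HOXC5, at 0 to 7 reads a library, where differences were not detectable, and HOXA4 and HOXA11.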
